A study of Mus musculus and Homo sapiens with 9 samples.

Results

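Long non-coding RNA (lncRNA) genes were described in J.gamma1 cells, an established human T cell acute lymphoblastic leukemia (T-ALL) line derived from Jurkat that lacks phospholipase C gamma 1. Members were the rows of the count table whose gene type in the GENCODE 44 annotation is lncRNA and whose mean was at least 10 CPM over the 4 libraries, where CPM is a count scaled to a common library total. The rule took 133 of 13830 lncRNA rows in a table of 64252 rows, and 5570 of the lncRNA rows held at least 1 count. It used the level over all 4 libraries and not the difference between the groups. The groups were 2 libraries with a control hairpin (shNC) and 2 with a hairpin against IRF2BP2 (shIRF2BP2), both delivered by lentivirus into the same line, and the labels do not say which hairpin was sequenced or whether replicates came from separate cultures. The p-values below therefore measure the spread between these libraries, which may be technical. A second table held splenic CD3+ T cells of mice, 2 libraries labelled Irf2bp2 KO and 3 labelled Wild type, which the methods describe as Vav-iCre+/-;Irf2bp2fl/fl animals and Vav-iCre-/-;Irf2bp2fl/fl controls. Vav-iCre is active across blood cells, and both mouse groups carry the floxed gene. The J.gamma1 libraries held 26648204 to 31120236 counts.

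A lncRNA gene is transcribed like a coding gene but its RNA is not known to be translated into a functional protein. Some of these RNAs scaffold bodies in the nucleus, some bind proteins or microRNAs in the cytoplasm, and some are spliced only to release a small nucleolar RNA (snoRNA) or a microRNA from an intron. Many others start beside or opposite a coding gene and carry that gene's name with -AS (antisense) or -DT (divergent transcript). IRF2BP2 encodes a nuclear cofactor of transcription.

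Sequences of a few members are shown because they set these RNAs apart from one another, and the changes of the same RNAs follow below. NORAD (chr20:36045618-36051018, minus strand, hg38, a gene without an exon shared with another gene) is a cytoplasmic RNA that binds Pumilio proteins such as PUM2. Its GENCODE transcript of 5401 bases held 15 copies of the Pumilio word TGTANATA on the sense strand. No other member held more than 6, and 97 of the 133 held none. Per kilobase NORAD held 2.78 copies, against at most 0.722 in any other member. At least 1 copy stood in 27.1% of members and in 10.96% of all lncRNA rows, whose transcripts differ in length. Copies 1, 5, 10 and 15, counted from the 5′ end, are given with their flanks, the word in capitals, at chr20:36050183-36050210, chr20:36049493-36049520, chr20:36048296-36048323 and chr20:36046345-36046372 on the minus strand.
NORAD element 1: ggaaggcctgTGTATATAatatgaaaaa
NORAD element 5: gtgtatatagTGTACATAaaggacagac
NORAD element 10: ctgtatatatTGTATATAtaacggacaa
NORAD element 15: ttagcctattTGTAAATAcctttgttat

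MALAT1 (chr11:65497640-65508073, plus strand) and NEAT1 (chr11:65422774-65445540, plus strand) are neighbours on chromosome 11. MALAT1 RNA is found in nuclear speckles, and NEAT1 RNA is the scaffold of paraspeckles. The 3′ end of MALAT1 and of the long NEAT1 transcript folds into a triple helix in place of a poly(A) tail, with U-rich runs pairing to an A-rich tract. The words TTTCTTTT, TTTGCTTTT and AAAGCAAAA in this order, on the sense strand and within 110 bases, were found in 2 of 18866 lncRNA genes of the annotation, and these were MALAT1 and NEAT1. The stretches lie at chr11:65506026-65506119 and chr11:65445448-65445540 on the plus strand, with the 3 words in capitals.
MALAT1: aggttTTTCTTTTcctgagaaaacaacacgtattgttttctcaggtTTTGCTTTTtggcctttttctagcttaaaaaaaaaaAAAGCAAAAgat
NEAT1: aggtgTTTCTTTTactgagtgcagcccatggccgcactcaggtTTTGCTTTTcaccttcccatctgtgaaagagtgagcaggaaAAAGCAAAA

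DLEU2 (chromosome 13) hosts miR-15a and miR-16-1, and MIR29B2CHG (chromosome 1) hosts miR-29b-2 and miR-29c. The mature sequences are those of the mouse in RefSeq (GRCm38.p6), and each was found letter for letter in the human hairpin of the GENCODE transcripts. Seeds, bases 2 to 8, are in capitals. The pair from DLEU2 shares 1 seed and the pair from MIR29B2CHG shares another.
miR-15a-5p: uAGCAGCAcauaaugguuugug
miR-16-5p: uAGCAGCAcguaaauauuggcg
miR-29b-3p: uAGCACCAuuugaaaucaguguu
miR-29c-3p: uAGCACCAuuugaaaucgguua
Mature microRNAs themselves were not measured in these libraries.

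As a check of the labels, IRF2BP2 stood at 204 and 199 CPM in the shNC libraries and 78.96 and 93.8 CPM in the shIRF2BP2 libraries (log2 fold change -1.22 ± 0.13 SE, adjusted p = 0.0023 by edgeR). T lineage markers were present in all libraries, with a summed level of 1903 to 2176 CPM over 12 genes. By the thresholds given below, 1 of the 12 was called higher and 2 lower, where 10.5% of all genes tested were called. CD28 rose (log2 fold change 0.81 ± 0.14 SE) and CD3D fell (-0.79 ± 0.12 SE). RAG1 fell from 60.9 and 30.2 CPM in the shNC libraries to 6.87 and 6.95 CPM in the shIRF2BP2 libraries (log2 fold change -2.72 ± 0.31 SE, adjusted p = 0.0029 by edgeR). Of 3 B cell markers PAX5 was near 0 and MS4A1 at 0, whereas CD79A was detected and lower in the shIRF2BP2 libraries (adjusted p = 0.0015). Myeloid markers summed to at most 0.814 CPM over 5 genes. HBB and ALAS2 of the 3 erythroid markers were at 0, and HBA1 had 0.116 and 0.322 CPM in the shNC libraries and 1.20 and 0.950 CPM in the shIRF2BP2 libraries (log2 fold change 2.24 ± 0.62 SE, adjusted p = 0.058). COL1A2 and DCN of the 4 fibroblast markers were at 0 and PDGFRB lay near 1 CPM, but COL1A1 rose, with 3.28 and 2.68 CPM in the shNC libraries and 7.59 and 6.78 CPM in the shIRF2BP2 libraries (log2 fold change 1.27 ± 0.26 SE, adjusted p = 0.021). The part of these marker levels in the results below was not tested.

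The 133 lncRNA genes together took 0.401 to 0.445% of the counts of a library, and all 13830 lncRNA rows took 0.696 to 0.778%. The members were chosen by their mean CPM, so levels are a description. Mean levels are given on plain column totals, as the rule used them, while values of single libraries and values per kilobase use library sizes scaled by TMM. Most members were near the threshold, since 82 of 133 lay between 10 and 20 CPM. Only 20 reached 50 CPM and 6 reached 100 CPM, and the median was 16.8 CPM. The 10 highest members took 34.3 to 38.8% of the members' counts in a library.

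The highest member was SNHG29, a host of 3 snoRNAs on chromosome 17, with 357 and 443 CPM in the shNC libraries and 321 and 363 CPM in the shIRF2BP2 libraries. FGD5-AS1, which lies antisense to FGD5, followed with a mean of 204 CPM. OIP5-AS1, a cytoplasmic RNA known for driving the decay of miR-7, had a mean of 195 CPM and NORAD one of 192 CPM. These means of FGD5-AS1, OIP5-AS1 and NORAD lay closer together than the libraries of NORAD did. GAS5, a growth-arrest transcript whose introns release snoRNAs, had a mean of 130.4 CPM. LINC02693 followed with 119.5 CPM. DANCR, SNHG14, SNHG1 and SNHG16 had means between 87.8 and 90.1 CPM, and their libraries overlapped. SNHG14 is the long transcript of the Prader-Willi region, and 84 snoRNA genes lay within it. Of the 10 highest members, 5 were SNHG genes or GAS5, as the plot of the highest levels shows.

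**Figure D1:**
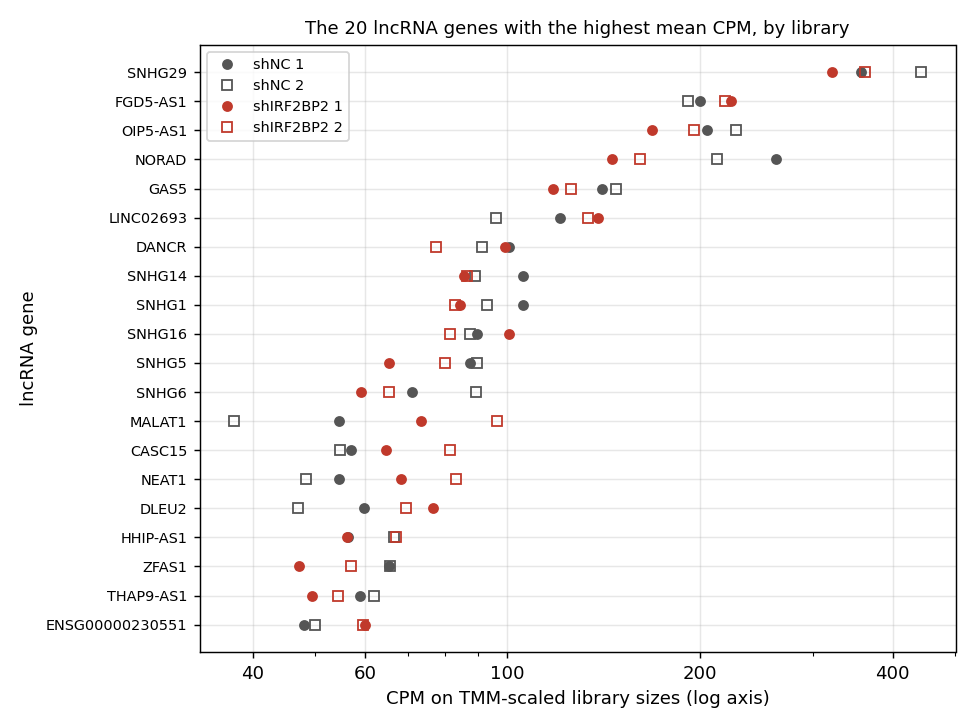
CPM (log axis) of the 20 lncRNA genes with the highest mean level, 1 symbol per library, with shNC in grey and shIRF2BP2 in red. SNHG29 lies highest in every library. The grey and red symbols overlap for SNHG29, DANCR, SNHG16 and HHIP-AS1 and stand apart for the other genes shown. Over all genes tested the groups did not overlap for 58.3%.

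Per kilobase of merged exons the order differed. The highest value over the 4 libraries was that of ENSG00000265401, with 51.7 CPM per kilobase, followed by SNHG29 with 41.5, NORAD with 36.2 and FGD5-AS1 with 34.5. All exonic bases of ENSG00000265401 lie in exons of other annotated genes, most of all the ubiquitin gene UBB on the opposite strand. UBB stood at 354 and 365 CPM in the shNC libraries and 304 and 289 CPM in the shIRF2BP2 libraries. Next came ENSG00000259952 with 32.1 and ENSG00000269968 with 30.7 CPM per kilobase. Of their exonic bases 93.97% and 100% are shared with other genes, most of all MAZ and GAPDH on the opposite strand. These coding genes had 498 to 875 CPM (MAZ) and 3477 to 5066 CPM (GAPDH). The library kit named in the labels does not mark strand, so reads of these pairs cannot be told apart. At the other end stood NUTM2A-AS1 with 0.535 and GARS1-DT with 0.589 CPM per kilobase.

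Overlap of this kind was common. The median share of a member's exonic bases that lies in an exon of another gene, on either strand, was 8.69%. It was at most 10% in 68 members, of which 28 had no overlap at all, and at least 50% in 29 members. The share was 100% in 4 members, and the genes that shared the most of these bases were UBB, KLHL11, NETO1 and GAPDH. Symbols such as SLX1A-SULT1A3, SLX1B-SULT1A4 and STAG3L5P-PVRIG2P-PILRB name read-through transcripts that join several genes, and the counts of such members are uncertain for the same reason.

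Close to the threshold, the members just inside were ENSG00000270696 (10.6 CPM), ENSG00000261553 (10.5 CPM), MIR29B2CHG (10.5 CPM), ENSG00000275764 (10.5 CPM) and MCM3AP-AS1 (10.4 CPM). Just outside were MIR9-1HG (9.95 CPM), ENSG00000277701 (9.94 CPM), ENSG00000260966 (9.94 CPM), ZNF584-DT (9.94 CPM) and SNHG11 (9.79 CPM).

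Replicates of a group differed by a median ratio of 1.26 in the more variable group of each member. For 10 members the ratio was 2 or more. The widest was MVP-DT, with 2.12 and 24.6 CPM in the shNC libraries and 26.2 and 2.37 CPM in the shIRF2BP2 libraries, so that 1 library of each group was high and the other low. ENSG00000261553 had 12.9 and 14.9 CPM in the shNC libraries and 2.44 and 12.6 CPM in the shIRF2BP2 libraries, and ENSG00000268205 had 10.6 and 33.2 CPM in the shNC libraries and 11.5 and 13.2 CPM in the shIRF2BP2 libraries. Each of these last members has 1 library apart from the other 3.

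Knockdown of IRF2BP2 was compared with the control hairpin by edgeR's quasi-likelihood test over 15819 genes, with p-values adjusted by the Benjamini-Hochberg method over all of them. Calls needed an adjusted p below 0.05 together with a log2 fold change that reached 0.5 in either direction. Of the 133 members, all of which were tested, 9 rose and 7 fell, where 5.46% of all genes tested rose and 5.01% fell. These 16 members are 12.0% of the list, while 10.5% of all genes tested and 14.4% of the 9716 tested genes of at least 10 CPM were called, so the share of members called was near that of other genes. The median log2 fold change was 0.0028 over the members and 0.0067 over all genes tested, and 67 members had a value above 0 and 66 one below it. The libraries of the groups did not overlap for 86 members (64.7%), against 58.3% of all genes tested. An unadjusted p under 0.05 was found for 45 members, but its share over all genes tested was not counted, so this number is not read as a result. With 2 libraries a group, leaving out 1 of them moved these counts by over 1.5 times, to 19 higher and 20 lower without shNC replicate 1, to 5 higher and 2 lower without shIRF2BP2 replicate 1, and to 5 higher without shIRF2BP2 replicate 2.

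**Figure D2:**
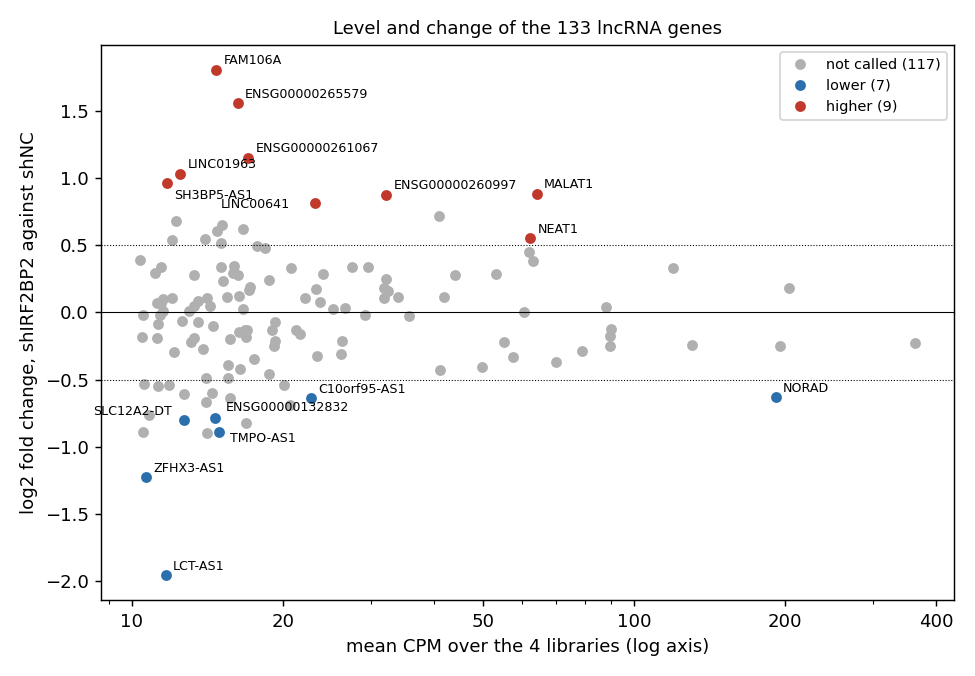
Mean CPM over the 4 libraries (log axis) against the log2 fold change of shIRF2BP2 over shNC for the 133 lncRNA genes, with dotted lines at 0.5 in either direction. The 9 genes called higher are red and the 7 called lower are blue, and NORAD is the called gene with the highest level.

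Among the members with known roles, both RNAs of nuclear bodies rose. MALAT1 had 54.6 and 37.4 CPM in the shNC libraries and 73.4 and 96.3 CPM in the shIRF2BP2 libraries (log2 fold change 0.88 ± 0.20 SE, adjusted p = 0.033). Every shIRF2BP2 library lay above both shNC libraries, although the shNC libraries themselves differed. MALAT1 shares 83.7% of its exonic bases with other annotated genes, most of all TALAM1 on the opposite strand. NEAT1, which shares no exon with another gene, had 54.5 and 48.5 CPM in the shNC libraries and 68.2 and 83.01 CPM in the shIRF2BP2 libraries (log2 fold change 0.55 ± 0.14 SE, adjusted p = 0.043). Its groups did not overlap either. With each library left out in turn, the log2 fold change ran from 0.63 to 1.18 for MALAT1 and from 0.40 to 0.66 for NEAT1. Neither call held in every one of these fits, each of which leaves 1 group with 1 library. The paraspeckle proteins NONO, SFPQ, PSPC1, RBM14 and TARDBP had log2 fold changes between -0.26 and 0.05, and none of these 5 was called.

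NORAD fell, and it was the fourth highest lncRNA of these cells. It stood at 263 and 212 CPM in the shNC libraries and 146 and 161 CPM in the shIRF2BP2 libraries (log2 fold change -0.63 ± 0.14 SE, adjusted p = 0.032). The groups did not overlap, and the lower shNC library was 212 CPM against 161 CPM in the higher shIRF2BP2 library. The call held in 1 of the 4 fits that leave out a library. Its partner PUM2 (log2 fold change 0.18 ± 0.14 SE, adjusted p = 0.46) was not called. None of the other 6 cytoplasmic RNAs listed was called. Values below 0 were those of OIP5-AS1 (-0.25), GAS5 (-0.24), DANCR (-0.12) and ZFAS1 (-0.33), and values above 0 those of TUG1 (0.31) and CYTOR (0.23), which are no members (all as log2 fold changes).

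The largest rises were those of FAM106A (chr17:18511221-18551705, minus strand), a gene with near-identical copies on chromosome 17 between which reads may be split, and of ENSG00000265579. FAM106A had 3.94 and 9.38 CPM in the shNC libraries and 20.1 and 26.8 CPM in the shIRF2BP2 libraries (log2 fold change 1.81 ± 0.37 SE, adjusted p = 0.021). Its shNC libraries differed by 2.38 times, and both lay below the shIRF2BP2 libraries. Other annotated genes share 46.5% of the exonic bases of FAM106A, most of all the lncRNA gene ENSG00000290659 on the same strand. Reads of the shared bases cannot be told apart. ENSG00000265579 (chr18:72743756-72745961, minus strand) had 7.65 and 9.22 CPM in the shNC libraries and 23.97 and 25.7 CPM in the shIRF2BP2 libraries (log2 fold change 1.56 ± 0.18 SE, adjusted p = 0.0028), with little spread in either group. All of its exonic bases lie within exons of other annotated genes, most of all NETO1 on the same strand. NETO1, an auxiliary subunit of glutamate receptors, had 39.7 and 30.3 CPM in the shNC libraries and 85.9 and 75.04 CPM in the shIRF2BP2 libraries (log2 fold change 1.20 ± 0.16 SE, adjusted p = 0.0045). The rise of the lncRNA row cannot be told apart from that of NETO1. ENSG00000261067 had 7.69 and 13.9 CPM in the shNC libraries and 27.2 and 21.03 CPM in the shIRF2BP2 libraries (log2 fold change 1.15 ± 0.28 SE, adjusted p = 0.039). It shares 79.6% of its exonic bases with other annotated genes, most of all LAT on the same strand. LAT, the adaptor that links the T cell receptor to phospholipase C gamma 1, had 30.4 and 29.3 CPM in the shNC libraries and 50.01 and 53.1 CPM in the shIRF2BP2 libraries (log2 fold change 0.79 ± 0.12 SE, adjusted p = 0.0084). Here too the reads of the overlapping genes cannot be told apart.

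A further 3 of the 9 members that rose shared no exon with another annotated gene. LINC01963 (chr2:216217045-216220192, plus strand) had 6.68 and 10.1 CPM in the shNC libraries and 18.3 and 16.01 CPM in the shIRF2BP2 libraries (log2 fold change 1.03 ± 0.23 SE, adjusted p = 0.031). ENSG00000260997 (chr7:44958999-44960909, minus strand) had 21.7 and 24.6 CPM in the shNC libraries and 37.02 and 47.9 CPM in the shIRF2BP2 libraries (log2 fold change 0.88 ± 0.16 SE, adjusted p = 0.016). LINC00641 (chr14:21200079-21206900, minus strand) had 20.9 and 13.4 CPM in the shNC libraries and 31.01 and 29.4 CPM in the shIRF2BP2 libraries (log2 fold change 0.82 ± 0.21 SE, adjusted p = 0.047). None of these groups overlapped, and the wider spread was in the shNC libraries of LINC00641. The ninth member that rose, SH3BP5-AS1, is given with its coding gene below.

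The deepest fall was that of LCT-AS1 (chr2:135820191-135823087, plus strand), antisense to the lactase gene, with 17.96 and 19.8 CPM in the shNC libraries and 3.13 and 6.62 CPM in the shIRF2BP2 libraries (log2 fold change -1.95 ± 0.33 SE, adjusted p = 0.011). Both shNC libraries were well above both shIRF2BP2 libraries, of which the first was the lower. ENSG00000132832 (chr20:44656451-44696096, minus strand) had 17.5 and 20.3 CPM in the shNC libraries and 11.3 and 10.7 CPM in the shIRF2BP2 libraries (log2 fold change -0.79 ± 0.18 SE, adjusted p = 0.029). It shares 84.7% of its exonic bases with other annotated genes, most of all LINC01260 on the same strand. SLC12A2-DT (chr5:127939152-128083172, minus strand) had 16.8 and 16.1 CPM in the shNC libraries and 9.44 and 9.43 CPM in the shIRF2BP2 libraries (log2 fold change -0.80 ± 0.18 SE, adjusted p = 0.028). Its replicates were almost equal in each group. C10orf95-AS1 had 27.5 and 29.1 CPM in the shNC libraries and 17.6 and 18.8 CPM in the shIRF2BP2 libraries (log2 fold change -0.64 ± 0.14 SE, adjusted p = 0.03). Other annotated genes share 20.6% of its exonic bases, most of all C10orf95 on the opposite strand. LCT-AS1, ZFHX3-AS1, SLC12A2-DT, ENSG00000265579, FAM106A, LINC01963 and SH3BP5-AS1 each had a mean under 10 CPM in 1 of the groups. With each library left out in turn, the log2 fold change ran from -2.60 to -1.54 for LCT-AS1 and from -1.27 to -1.19 for ZFHX3-AS1. It ran from 1.43 to 1.70 for ENSG00000265579 and from 1.32 to 2.57 for FAM106A.

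**Figure D3:**
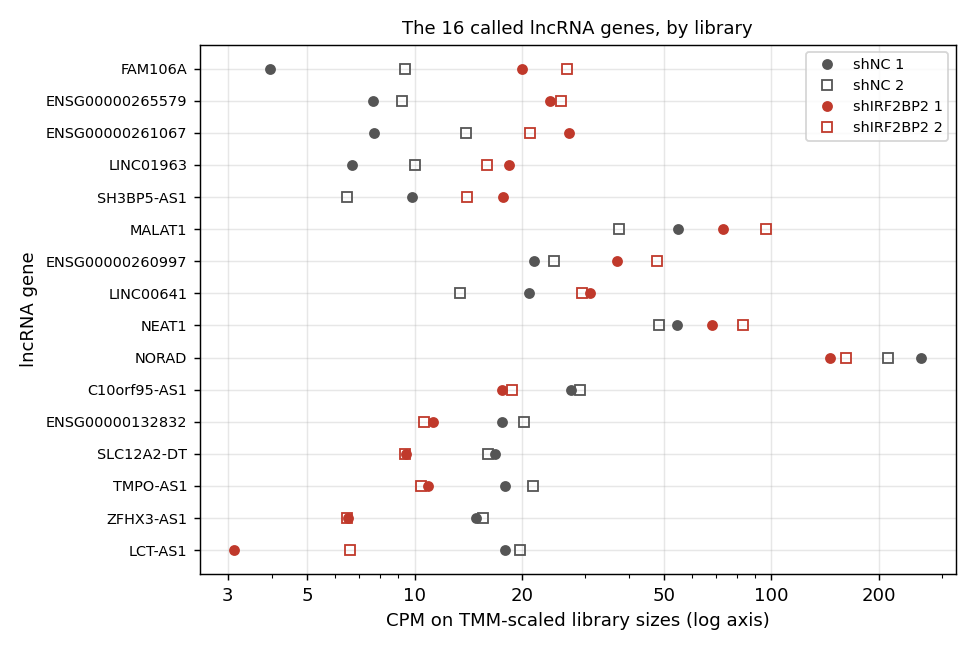
CPM (log axis) in each of the 4 libraries for the 16 called lncRNA genes, ordered by log2 fold change, with shNC in grey and shIRF2BP2 in red. In no row do the colours overlap, and the shNC symbols of FAM106A and the shIRF2BP2 symbols of LCT-AS1 are the farthest apart within a group.

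Of the 16 called members, 7 had a mean under 10 CPM in 1 of the groups and so entered the list through the group where they are high. With a mean of at least 10 CPM required in both groups, a restriction chosen after the data were seen, 116 members remained, of which 5 rose and 4 fell. By overlap, 4 rose and 3 fell of the 68 members with at most 10% of their exonic bases shared. Of 36 between 10 and 50%, 2 rose and 3 fell, and of 29 with at least 50%, 3 rose and 1 fell. Over all tested genes of at least 10 CPM, 14.4% were called.

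Host genes of snoRNAs were not called, where 14.4% of all tested genes of at least 10 CPM were called. The class is small, so this count is a description. A snoRNA guides the chemical modification of ribosomal RNA, and its host transcript is often degraded by nonsense-mediated decay after splicing. The annotation placed a snoRNA gene within 16 members on the same strand. GAS5 is not among them, since no snoRNA gene was annotated within it. Of the 16, 5 had an unadjusted p under 0.05, as did 45 of all 133 members. None of the 16 passed the test by edgeR, and 1 had an adjusted p under 0.05 by DESeq2. Their median log2 fold change was -0.18, against 0.0028 over all 133 members, and 11 of 16 values were below 0. Among the 12 members named SNHG or GAS5, 9 values were below 0, the median was -0.23 and the shIRF2BP2 libraries lay below both shNC libraries for 8 (this held for 28.7% of all genes tested). None of the 12 was called, 3 had an unadjusted p under 0.05, and none had an adjusted p under 0.05 by DESeq2. The lowest value was that of SNHG17, with 53.95 and 42.5 CPM in the shNC libraries and 38.4 and 33.3 CPM in the shIRF2BP2 libraries (log2 fold change -0.43 ± 0.16 SE, adjusted p = 0.12). SNHG15 had 61.4 and 54.6 CPM in the shNC libraries and 44.3 and 43.2 CPM in the shIRF2BP2 libraries (log2 fold change -0.41 ± 0.12 SE, adjusted p = 0.076). Both SNHG17 and SNHG15 share no exon with another gene, and their groups did not overlap. SNHG6 (-0.36), ZFAS1 (-0.33), SNHG5 (-0.29), SNHG1 (-0.25), SNHG29 (-0.23), SNHG8 (-0.18), SNHG14 (-0.18), DANCR (-0.12) and UBA6-DT (-0.02) had log2 fold changes below 0. SNHG16 (0.04), SNHG7 (0.02), SNHG3 (0.12) and EPB41L4A-AS1 (0.07) had values above it. The highest was ENSG00000264772 (log2 fold change 0.72 ± 0.24 SE, adjusted p = 0.095). It shares 86.8% of its exonic bases with other annotated genes, most of all the translation factor gene EIF4A1 on the same strand.

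The proteins that bind snoRNAs were read beside their hosts. All 8 core proteins of snoRNPs had log2 fold changes below 0, with a median of -0.37, and 1 was called. This was NOP56, a scaffold of box C/D snoRNPs, with 364 and 320.0 CPM in the shNC libraries and 254 and 212 CPM in the shIRF2BP2 libraries (log2 fold change -0.55 ± 0.14 SE, adjusted p = 0.045). The methyltransferase FBL had 233 and 258 CPM in the shNC libraries and 186 and 167 CPM in the shIRF2BP2 libraries and an adjusted p of 0.049, but its log2 fold change of -0.48 was under the threshold of 0.5 in size. NOP58, SNU13, DKC1, NHP2, NOP10 and GAR1 lay between -0.40 and -0.02. Among 9 factors of nonsense-mediated decay none was called, the median was 0.32 and 8 values were above 0. SMG6, the endonuclease of this pathway, had an adjusted p of 0.038 at a log2 fold change of 0.47, under the threshold in size. UPF1, UPF2, UPF3A, UPF3B, SMG1, SMG5, SMG8 and SMG9 lay between -0.30 and 0.73. Of all genes tested 10.5% were called, and of those of at least 10 CPM 14.4%. The median log2 fold change over all genes tested was 0.0067. How many of all genes lay above or below 0 was not counted, so the numbers of both lists are a description.

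Among 8 members that contain a microRNA gene, NEAT1 alone was called, near the 14.4% of all tested genes of at least 10 CPM. DLEU2, whose microRNAs are printed above, had 59.7 and 46.99 CPM in the shNC libraries and 76.4 and 69.4 CPM in the shIRF2BP2 libraries (log2 fold change 0.45 ± 0.15 SE, adjusted p = 0.089). Its groups did not overlap but the value was not called. MIR29B2CHG had 14.5 and 7.22 CPM in the shNC libraries and 9.86 and 11.5 CPM in the shIRF2BP2 libraries (log2 fold change -0.02 ± 0.32 SE, adjusted p = 0.97), and its shNC libraries enclosed the shIRF2BP2 libraries. GABPB1-AS1 (-0.21), MIR600HG (-0.13), DANCR (-0.12), STAG3L5P-PVRIG2P-PILRB (-0.07) and TTC28-AS1 (0.11) had log2 fold changes near 0. DROSHA and DGCR8, which cut microRNAs from their host transcripts, were not called.

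**Figure D4:**
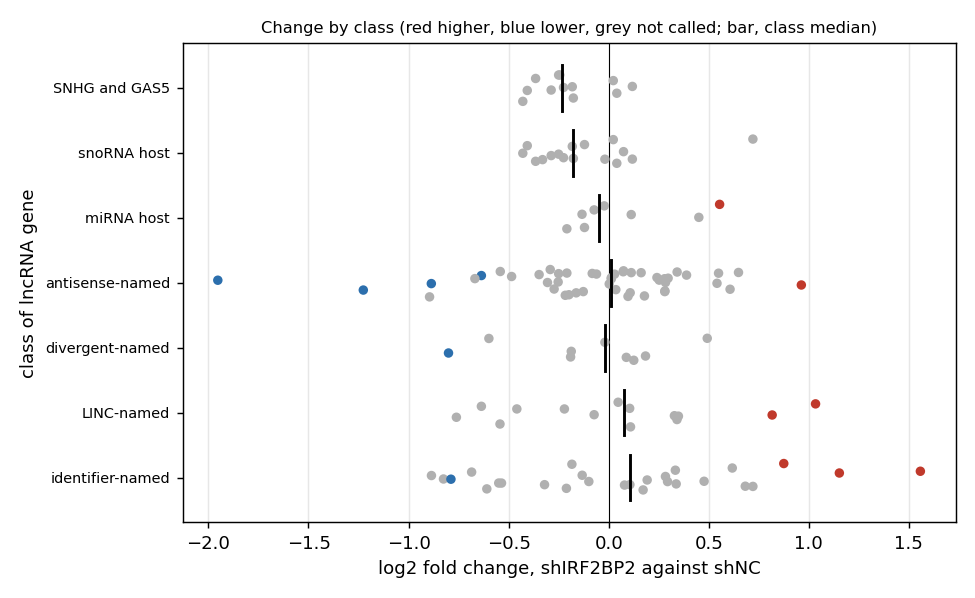
Log2 fold change of the lncRNA genes by class, each point a gene and each bar a class median, with genes called higher in red and called lower in blue. Genes named SNHG or GAS5 lie between -0.43 and 0.12 with none called, while the antisense-named genes spread from -1.95 to 0.96.

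Of 47 members named as antisense to a coding gene, 1 rose and 4 fell, with a median log2 fold change of 0.013. Of 9 named as divergent transcripts, 1 fell and none rose. For all 56 the coding gene in the symbol was tested too, and the lncRNA and the coding gene had log2 fold changes of the same sign in 27 pairs and of opposite signs in 29. The coding gene was called in 10 pairs, the lncRNA in 6 and both in 3, where 10.5% of all genes tested and 14.4% of those of at least 10 CPM were called.

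In the 3 pairs with both called, the directions were not the same. SH3BP5-AS1 (chr3:15254184-15264515, plus strand) had 9.85 and 6.48 CPM in the shNC libraries and 17.7 and 14.04 CPM in the shIRF2BP2 libraries (log2 fold change 0.96 ± 0.25 SE, adjusted p = 0.047). SH3BP5, which activates the trafficking GTPase RAB11, had 28.3 and 23.4 CPM in the shNC libraries and 76.6 and 63.4 CPM in the shIRF2BP2 libraries (log2 fold change 1.44 ± 0.16 SE, adjusted p = 0.0023). Both rose, and the lncRNA shares 35.99% of its exonic bases with other annotated genes, most of all SH3BP5 on the opposite strand. TMPO-AS1 (chr12:98512973-98516422, minus strand) had 17.96 and 21.5 CPM in the shNC libraries and 10.9 and 10.4 CPM in the shIRF2BP2 libraries (log2 fold change -0.89 ± 0.18 SE, adjusted p = 0.021). TMPO, which encodes the lamina protein LAP2, had 433 and 405 CPM in the shNC libraries and 286 and 275 CPM in the shIRF2BP2 libraries (log2 fold change -0.58 ± 0.12 SE, adjusted p = 0.024). Both fell, with 19.2% of the exonic bases of TMPO-AS1 shared. ZFHX3-AS1 (chr16:72665123-72828293, plus strand) had 14.8 and 15.6 CPM in the shNC libraries and 6.53 and 6.48 CPM in the shIRF2BP2 libraries (log2 fold change -1.23 ± 0.19 SE, adjusted p = 0.0076). ZFHX3, a large homeodomain transcription factor, had 6.60 and 4.09 CPM in the shNC libraries and 19.9 and 19.1 CPM in the shIRF2BP2 libraries (log2 fold change 1.87 ± 0.25 SE, adjusted p = 0.0047). The lncRNA fell and the coding gene rose. ZFHX3-AS1 shares 19.2% of its exonic bases with other annotated genes, most of all ZFHX3 on the opposite strand. Reads of the shared bases cannot be told apart in these 3 pairs, and their part in the changes was not tested. In none of the genes of these pairs did the groups overlap.

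For the other called members of this kind the coding gene was not called. LCT had 2.70 and 3.03 CPM in the shNC libraries and 1.72 and 1.56 CPM in the shIRF2BP2 libraries (log2 fold change -0.81 ± 0.33 SE, adjusted p = 0.16). SLC12A2, which encodes a sodium, potassium and chloride cotransporter, had 46.7 and 32.1 CPM in the shNC libraries and 52.00 and 37.01 CPM in the shIRF2BP2 libraries (log2 fold change 0.18 ± 0.22 SE, adjusted p = 0.65), and its groups overlapped. C10orf95 was at or under 0.806 CPM in every library, where a change was not detectable at this depth.

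In 7 pairs the coding gene was called and the lncRNA was not, and these were chosen for their calls. The deubiquitinase gene OTUD6B fell (log2 fold change -1.51 ± 0.18 SE, adjusted p = 0.003) while OTUD6B-AS1 had 33.2 and 29.2 CPM in the shNC libraries and 30.9 and 38.9 CPM in the shIRF2BP2 libraries. NNT, the mitochondrial transhydrogenase, fell (log2 fold change -1.03 ± 0.12 SE, adjusted p = 0.003), with NNT-AS1 at a log2 fold change of -0.31. THUMPD3, a tRNA methyltransferase, fell (log2 fold change -0.81 ± 0.11 SE, adjusted p = 0.0053), with THUMPD3-AS1 at 0.11. These lncRNA genes stayed uncalled beside coding genes that fell. CDK6, a cyclin-dependent kinase, rose (log2 fold change 0.96 ± 0.22 SE, adjusted p = 0.032), with CDK6-AS1 at 0.54 (adjusted p = 0.092). SATB1, an organiser of chromatin in thymocytes, rose (log2 fold change 0.76 ± 0.16 SE, adjusted p = 0.024), with SATB1-AS1 at 0.30. IRF1, an interferon response factor, rose (log2 fold change 0.50 ± 0.13 SE, adjusted p = 0.049), with IRF1-AS1 at 0.34. MVP, the major vault protein, rose (log2 fold change 1.36 ± 0.17 SE, adjusted p = 0.0034), whereas MVP-DT differed 11.6-fold between replicates.

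**Figure D5:**
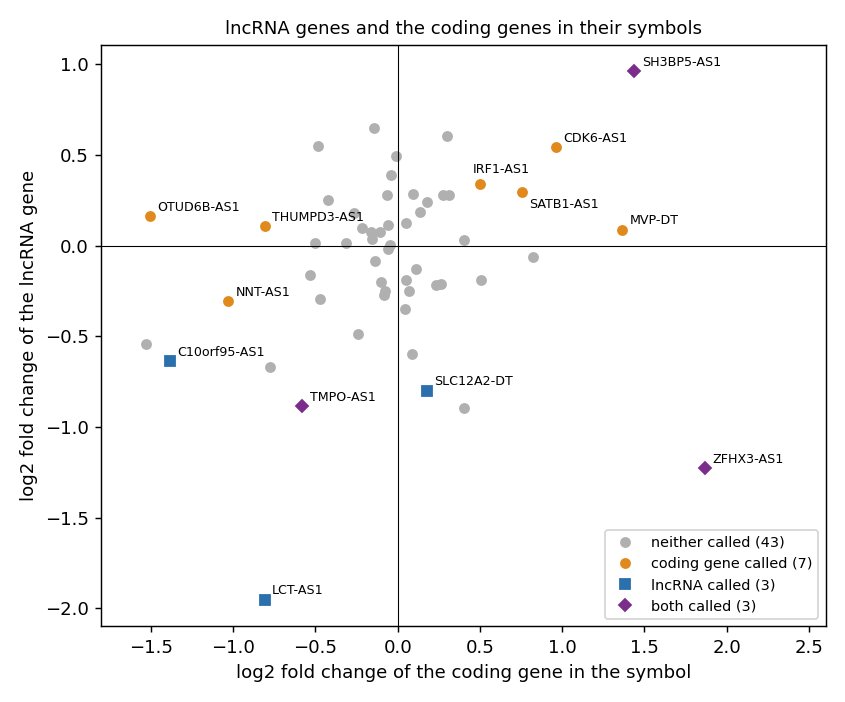
Log2 fold change of the coding gene in the symbol (horizontal axis) against that of the antisense- or divergent-named lncRNA gene (vertical axis) for 56 pairs, coloured by which of them was called. SH3BP5-AS1 and TMPO-AS1 lie on the same side of 0 as their coding genes, and ZFHX3-AS1 at -1.23 lies opposite ZFHX3 at 1.87.

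LINC-named members numbered 14, of which 2 rose and none fell. LINC02982 (log2 fold change -0.76 ± 0.21 SE, adjusted p = 0.057) and LINC01215 (log2 fold change -0.54 ± 0.15 SE, adjusted p = 0.056) had the lowest values with no overlap between the groups and were not called. Of 27 members known by an identifier only, 3 rose and 1 fell. Over all tested genes of at least 10 CPM 14.4% were called, so the counts of these classes are near that share.

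Of 39 known lncRNAs listed by role, 37 were matched by symbol here, and 8 were members. JPX, a gene of the X inactivation centre, had 15.95 and 18.98 CPM in the shNC libraries and 15.6 and 16.05 CPM in the shIRF2BP2 libraries (log2 fold change -0.14 ± 0.17 SE, adjusted p = 0.63). TUG1 had a mean of 167 CPM but is typed as protein coding in GENCODE 44 and is therefore no member. The MYC-linked genes PVT1 and MIR17HG had 3.41 and 5.19 CPM, and T cell or leukemia genes such as LEF1-AS1, MIR4435-2HG, MIR142HG and MIAT had means between 6.41 and 7.79 CPM, all under the threshold. Of the 17 listed genes under 10 CPM that were tested, 2 were called, where 10.5% of all genes tested were called. MIR181A1HG, the host of a microRNA that tunes T cell receptor signalling, had 0.386 and 0.0322 CPM in the shNC libraries and 2.82 and 2.07 CPM in the shIRF2BP2 libraries (log2 fold change 3.59 ± 0.76 SE, adjusted p = 0.025). MIR223HG, the host of the myeloid miR-223, had 1.78 and 2.16 CPM in the shNC libraries and 0.412 and 0.645 CPM in the shIRF2BP2 libraries (log2 fold change -1.89 ± 0.45 SE, adjusted p = 0.036). Both had means near 1 CPM, far below the members. The 0.0322 CPM of MIR181A1HG in shNC replicate 2 lies under the level that 3 counts give there, 0.0967 CPM. The size of its log2 fold change is therefore uncertain.

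Earlier results of these data named the word GGTCTA and its extensions in messenger RNAs, and the sense sequences of the lncRNA transcripts were searched for them. The longest word searched, AGGTCTAA, contains each of the shorter ones and stood in 7 of 133 members (5.26%) and in 4.22% of the 1777 lncRNA genes tested. The median log2 fold change of those 7 was 0.18, with 1 called lower and none higher, against -0.0080 for members without it. GGTCTA stood in 69 members, with 5 called higher and 4 lower and a median of -0.020 against 0.032 without it. Over all lncRNA genes tested the medians were -0.0051 with and 0.051 without. Members with the word were longer, with a median longest transcript of 4755 bases against 2632. AGGTCTA stood in 27 members and GGTCTAA in 27, with medians of -0.020 and -0.019. The called member with AGGTCTAA was SLC12A2-DT, and NORAD held AGGTCTA and GGTCTAA at separate sites, with the word in capitals below. They lie at chr5:128056840-128056867, chr20:36046476-36046502 and chr20:36046772-36046798, all on the minus strand.
SLC12A2-DT: catttattttAGGTCTAAatgactcccc
NORAD, AGGTCTA: tgataaccacAGGTCTAcaagagcgtt
NORAD, GGTCTAA: tagttcagatGGTCTAAccattgttct
A match describes letters only and does not show that a protein binds there.

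In the mouse T cells 16 members were matched to a gene of the same symbol, and 13 of these genes were tested here. None was called by edgeR, for which the log2 fold change had to reach 1 here and where 2.58% of 15350 genes tested were called, and none by DESeq2 with the same fold limit, although 1 (Dleu2) had an adjusted p under 0.05 by it. An unadjusted p under 0.05 was found for 2, and its share over all mouse genes was not counted. Crnde, named after its level in colorectal neoplasia, had 0.216, 0.0830 and 0.0626 CPM in the Wild type libraries and 0.731 and 1.07 CPM in the Irf2bp2 KO libraries (log2 fold change 2.77 ± 0.69 SE, adjusted p = 0.1). In the Wild type libraries it lay near the level that 3 counts give, 0.0810 to 0.188 CPM. Dleu2 had 13.9, 17.4 and 13.9 CPM in the Wild type libraries and 22.2 and 30.6 CPM in the Irf2bp2 KO libraries (log2 fold change 0.81 ± 0.21 SE, adjusted p = 0.11 by edgeR and 0.018 by DESeq2), and every KO library lay above every Wild type library. Malat1 varied widely among the Wild type libraries, with 1939, 541 and 3183 CPM in the Wild type libraries and 2129.5 and 3387 CPM in the Irf2bp2 KO libraries (log2 fold change 0.55 ± 0.63 SE, adjusted p = 0.74). Neat1 had 375, 158 and 289 CPM in the Wild type libraries and 313 and 352 CPM in the Irf2bp2 KO libraries (log2 fold change 0.28 ± 0.33 SE, adjusted p = 0.75). Gas5, Snhg3, Snhg5, Snhg6, Snhg14, Snhg15, Snhg17, Zfas1 and Jpx lay between -0.76 and 0.08 on the log2 scale. Species, cell state and the way IRF2BP2 was lost differ between the tables, so the values stand side by side with no comparison.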

How the data were processed

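RNA of J.gamma1 cells and of sorted mouse CD3+ T cells was sequenced from libraries made, per the labels, with an Illumina TruSeq kit that does not mark strand. The authors aligned reads with HISAT2 2.2.0 (hg38, mm10), ran StringTie for abundance, and the deposited values are raw counts for each Ensembl gene. How coverage became counts is not given in the sources used here, so counts divided by 2 were tried.

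Gene types, positions and sequences came from GENCODE 44 and, for mature microRNAs, mouse RefSeq. Annotated rows, which held 98.0% of the human counts, went through filterByExpr and TMM scaling into edgeR 4.0.16 (R 4.3.3; glmQLFit, glmQLFTest), with condition alone in the model and 1 fit per table, with Benjamini-Hochberg adjustment over all genes tested. CPM of single libraries and CPM per kilobase use TMM-scaled library sizes, while the rule for members and mean levels used plain column totals. The level of 3 counts was 0.0967 to 0.116 CPM in the J.gamma1 libraries, and such limits cover counting error only. Replicates differed by more than the sampling noise (chi-square per gene 38.7 for shNC and 19.5 for shIRF2BP2).

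The members and lists were chosen with earlier results of these data known. Named genes were the 10 members of highest level, the called members whose libraries did not overlap (up to 10 in each direction), hosts of snoRNAs and microRNAs, members of the list of known lncRNAs, those beside the level threshold, protein partners and coding genes paired with called members. Other genes were picked with their values in view. Alternatives were DESeq2 1.42.0, other scalings, filters, thresholds and levels, the replicate number as a block, and each library left out. The scripts were tested on simulated data. Some genes of the fixed lists are not reported here, and the lists' counts leave them out.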

Additional observations from a re-analysis of the deposited data

Results flagged for a closer look

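Rows whose identifier is not in GENCODE 44 took no part in the comparisons above. There were 8147 of them, with 1.91 to 2.11% of the counts of a library, and 395 had a mean of at least 10 CPM. When all rows were fitted together with edgeR, 30 of the 1279 such rows that were tested were called higher and 40 lower in the shIRF2BP2 libraries, against 9.18% called among all 17098 rows tested. Their gene types were not analysed here. With 2 or 3 libraries a group no single library was tested for standing apart.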

How the results depend on the processing

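Depth, 2 libraries a group and overlapping annotation limit these values. The 9 rises and 7 falls were 14 and 16 with the replicate number as a block, a pairing that the labels do not state and that rests on a correlation of deviations of 0.225 over 2 pairs. With DESeq2 13 members fell, with at least 10 counts required in every library 11, and with counts divided by 2 also 11. With every gene of at least 1 count in any library tested, 1 rose and 2 fell, and no microRNA host (0) was called. At a log2 fold change of at least 1, 4 rose and 2 fell. With a level of 20 CPM 4 rose and 2 fell, and with 5 CPM 12 fell. Of members with at most 10% exonic overlap, 4 rose and 3 fell, and of those of at least 10 CPM in both groups, 5 and 4. Leaving out single libraries gave 5 to 19 rises and 2 to 20 falls, 0 to 2 snoRNA hosts and 0 to 2 microRNA hosts called, and a median log2 fold change from -0.0912 to 0.0697. DESeq2 and the block each called 1 snoRNA host, and upper-quartile scaling called 0 microRNA hosts, since NEAT1 was lost. The cause of these differences was not tested, except that the restricted lists hold fewer members. No setting called a mouse counterpart and none turned the direction of a called member. Of 898 values of single named genes under these settings, 834 kept their side of the threshold, 47 lost a call, 17 gained one and 0 reversed. The calls of LCT-AS1, ZFHX3-AS1 and ENSG00000265579 held under the 8 other fits over all genes and without each library, but none of these genes is on the list at 20 CPM or at 10 CPM in both groups.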

Other observations

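Members lay on 23 chromosomes, with 14 on chromosome 17 and 10 each on chromosomes 1, 12 and 16. Just short of a call, LOXL1-AS1 had a log2 fold change of -0.67 ± 0.18 SE (adjusted p = 0.054 by edgeR), and LOXL1, a lysyl oxidase gene, was low in every library, at 2.78 and 2.61 CPM in the shNC libraries and 1.51 and 1.63 CPM in the shIRF2BP2 libraries. TOX-DT, which starts beside the thymocyte transcription factor gene TOX, had 17.3 and 18.3 CPM in the shNC libraries and 12.9 and 10.5 CPM in the shIRF2BP2 libraries (adjusted p = 0.076), while TOX itself had a log2 fold change of 0.09 ± 0.12 SE. NOP14-AS1 had a log2 fold change of 0.65 ± 0.18 SE (adjusted p = 0.058), with NOP14, a ribosome assembly factor, at -0.14 ± 0.18 SE. By DESeq2 each of LOXL1-AS1, TOX-DT and NOP14-AS1 had an adjusted p under 0.05 (0.019, 0.046 and 0.025). These genes were chosen after their values were seen.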
